A study of Homo sapiens with 38 samples.

Results

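Transcription of ribosomal DNA depends on a small set of proteins, and 10 of their genes were followed here through 6 human lymphoma lines, 2 drugs and 2 times. They are UBTF, RRN3, POLR1A, POLR1B, POLR1C, TAF1A, TAF1B, TAF1C, TAF1D and TTF1, picked by symbol as RNA polymerase I genes out of the 18011 genes counted, and all 10 were found. The lines OCILY1, PFEIFFER, SUDHL4, SUDHL6, TOLEDO and WSUDLCL2 are established lines of diffuse large B-cell lymphoma. Each was kept with the solvent DMSO or with a histone deacetylase (HDAC) inhibitor, pracinostat or vorinostat, and the RNA was sequenced in bulk. At 6 h there were 6 DMSO, 6 pracinostat and 5 vorinostat libraries, SUDHL6 with vorinostat not being analysed here. At 14 days the 5 lines other than SUDHL6 each gave 4 libraries, which were pracinostat, vorinostat and a DMSO library for each drug, titled DMSOP and DMSOV. The labels name no genetic change made for the study, doses are not stated, and every condition of a line is a single library, which makes lines the replicates.

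As background, RNA polymerase I works in the nucleolus and copies the repeated ribosomal RNA genes into the precursor of the large ribosomal RNAs. UBTF (also called UBF) coats the active repeats and keeps them open. The SL1 complex, made of the TATA-binding protein with TAF1A, TAF1B, TAF1C and TAF1D, recognises the promoter, and RRN3 (also called TIF-IA) joins the polymerase to it. POLR1A and POLR1B are the largest subunits and form the catalytic centre, POLR1C is a subunit shared with RNA polymerase III, and TTF1 is the transcription termination factor that binds beside the repeats (not the thyroid factor that carries the same alias). Ribosomal RNA itself was not analysed here, so every value below is the level of a messenger RNA.

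How these genes came to be examined limits what can be tested. They were selected by function, but as a group chosen with drug-against-DMSO results of the same libraries already known, and which of those results led to the choice is not recorded. The 4 comparisons of a drug with DMSO are therefore given as description, with fold changes and standard errors (SE) but no p-value. They support no statement about the group. Where a member is said to be called in them (adjusted p under 0.05), with all lines or under an alternative, that too is description and no test of the member. Tests are given for differences between the drugs, between the DMSO sets and between lines in DMSO. Differences between times in DMSO use the same 6 h DMSO libraries as the drug comparisons and are given without p-value.

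UBTF lies at chr17:44205033-44221626 on the minus strand (GENCODE 29, GRCh38), TAF1B at chr2:9843354-9934416 on the plus strand, TAF1C at chr16:84177847-84187070, TAF1D at chr11:93729948-93784391 and TTF1 at chr9:132375548-132406851, the latter 3 on the minus strand. Promoter sequence was looked at because several members were lower together at 6 h. RefSeq (GRCh38.p14) lists 14 start windows of 300 bases for the 10 genes, all 10 of which were matched. Those shown run 5′ to 3′ on the gene's strand from 150 bases before a listed start to 30 bases from it on, in lower case, with every match to the motifs CCGGAAG (the core bound by ETS factors), GCGCANGCG (the main part of the NRF1 motif) and CACGTG (an E-box), on either strand, in capitals. UBTF is shown because it differed most from DMSO at 6 h, TAF1B because it was lower in all 4 drug comparisons, TAF1D because it followed UBTF most closely, and TAF1C and TTF1 as members that did not follow it.
UBTF, chr17:44220853-44221032, minus strand: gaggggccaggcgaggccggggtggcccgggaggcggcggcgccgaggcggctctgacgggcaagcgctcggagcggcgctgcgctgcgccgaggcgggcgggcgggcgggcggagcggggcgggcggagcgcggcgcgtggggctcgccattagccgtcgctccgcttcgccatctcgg
TAF1B, chr2:9843292-9843471, plus strand: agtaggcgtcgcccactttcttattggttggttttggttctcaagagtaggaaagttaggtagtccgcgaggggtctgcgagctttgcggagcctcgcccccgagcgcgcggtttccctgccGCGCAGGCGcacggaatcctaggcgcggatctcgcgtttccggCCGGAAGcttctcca
TAF1D, chr11:93741466-93741645, minus strand: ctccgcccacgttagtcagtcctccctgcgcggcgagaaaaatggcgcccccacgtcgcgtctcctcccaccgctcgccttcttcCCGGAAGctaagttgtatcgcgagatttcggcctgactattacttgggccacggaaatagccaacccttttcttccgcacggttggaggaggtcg
TAF1C, chr16:84187028-84187207, minus strand: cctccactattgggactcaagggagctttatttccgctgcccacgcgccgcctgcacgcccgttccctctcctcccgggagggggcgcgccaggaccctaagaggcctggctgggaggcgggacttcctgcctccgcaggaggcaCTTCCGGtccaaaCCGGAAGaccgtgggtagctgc
TTF1, chr9:132406811-132406990, minus strand: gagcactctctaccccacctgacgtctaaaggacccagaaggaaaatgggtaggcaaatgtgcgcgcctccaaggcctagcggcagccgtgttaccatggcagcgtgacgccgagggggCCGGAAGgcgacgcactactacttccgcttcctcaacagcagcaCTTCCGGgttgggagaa

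The printed UBTF stretch holds no capitals, and neither full UBTF window matched any of these 3 motifs. CCGGAAG occurred in 11 of the 14 member windows, covering 8 of 10 genes (RRN3, POLR1B, POLR1C, TAF1A, TAF1B, TAF1C, TAF1D and TTF1), against 10.3% of all 35116 windows in the table and 15.8% of the 16369 windows of genes counted here. GCGCANGCG occurred in POLR1A and TAF1B, against 7.52% of all windows and 11.9% of those of genes counted here. CACGTG occurred in 0 of 14, against 7.26% and 9.22% in turn. The letters TATAAA, typical of promoters with a fixed start, were found in 0 of 14, against 11.5% and 6.69%. GGGCGGGG, a GC box, occurred in the POLR1C window alone, against 22.8% and 34%. Counts are of exact letters on both strands in the 300 bases, and 0 matches means only that these letters are not in this window. Median GC content was 60.6% over the member windows and 58.7% over all windows. The median number of CpG pairs was 26.5 and 14. The windows of RRN3 overlap, as do those of TAF1B, so the same match can be counted in both. Whether any of these motifs bears on the levels of the members was not tested.

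Libraries held 3.19 to 8.92 M (mega counts), and a gene at 0 could have up to 3 counts, which is 0.333 to 1.08 CPM (counts per mega counts of the library after TMM scaling), for counting error only. All members were above this floor in every library and all passed the filter on low counts. The 7 B-cell markers examined were present in every library, with sums of 1885 to 9139 CPM. At 14 days the drug libraries held more mitochondrial messenger RNA, with medians of 11.5% of counts with pracinostat and 13.0% with vorinostat against 7.19% in DMSOP and 8.86% in DMSOV. Of 7 myeloid markers listed, only 3 were among the genes counted. These 3 also summed higher there, to medians of 13.9 and 16.0 CPM against 0.231 and 0.660 CPM. The median sum of the T and NK cell markers counted was higher there too, with both drugs. That of the stromal and epithelial markers counted was higher with pracinostat and lower with vorinostat. In some DMSO libraries the sums of these other lists exceeded every myeloid sum. The part of any of these in the 14 day results was not tested.

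UBTF messenger RNA was lower at 6 h with either drug in every line measured, with line differences of -2.29 to -1.67 on the log2 scale with pracinostat and of -2.39 to -1.68 with vorinostat. In DMSO at 6 h it stood at 337 CPM in OCILY1, 307 in PFEIFFER, 341 in SUDHL4, 272 in SUDHL6, 388 in TOLEDO and 287 in WSUDLCL2, a mean of 322 ± 42.2 CPM (SD, n = 6). With pracinostat the same lines gave 68.5, 96.5, 95.8, 73.6, 114 and 64.4 CPM, a mean of 85.4 ± 19.5 CPM (SD, n = 6). With vorinostat OCILY1 gave 63.9, PFEIFFER 90.5, SUDHL4 67.7, TOLEDO 121 and WSUDLCL2 59.7 CPM, a mean of 80.5 ± 25.4 CPM (SD, n = 5). The groups did not overlap: the highest drug library, TOLEDO with vorinostat, was under 50% of the lowest DMSO library, SUDHL6. The fitted log2 fold change was -1.94 (SE 0.12) with pracinostat, a 3.84-fold lower level, and -2.09 (SE 0.13) with vorinostat, a 4.25-fold lower level. Both drugs were set against the same 6 h DMSO libraries. In these bulk data, less UBTF RNA in each cell and fewer cells carrying it cannot be told apart.

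**Figure D1:**
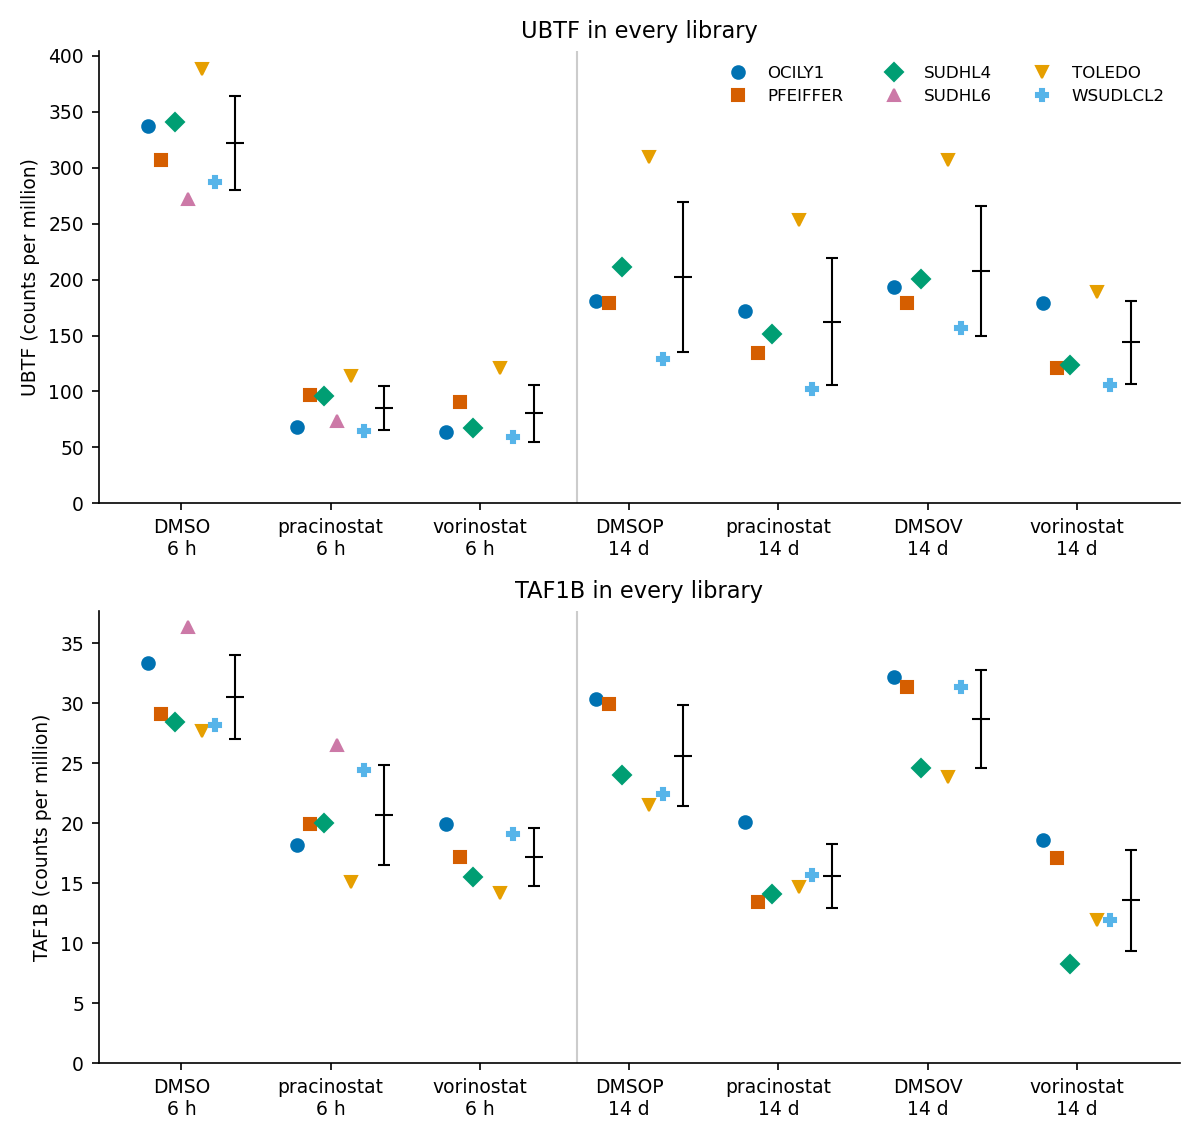
Level of UBTF (top) and TAF1B (bottom) in CPM (vertical axis, from 0) in every library, by treatment and time (horizontal axis). Each symbol is 1 library of the line in the key, and the black bar is the mean with 1 SD over lines. All 6 h drug libraries of UBTF lie between 59.7 and 121, below every DMSO library of 6 h, whereas the UBTF groups overlap at 14 days. For TAF1B the drug libraries lie below the matching DMSO libraries at both times.

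At 14 days UBTF was only a little under DMSO. DMSOP libraries held 181 CPM in OCILY1, 179 in PFEIFFER, 211 in SUDHL4, 310 in TOLEDO and 129 in WSUDLCL2, and the pracinostat libraries of these lines 172, 134, 151, 253 and 102 CPM. DMSOV libraries held 193, 179, 201, 307 and 157 CPM in the same order, and the vorinostat libraries 179, 121, 124, 189 and 106 CPM. Each drug library was below the DMSO library of its own line, in 5 of 5 lines for either drug, but the groups overlapped because the lines differ. The log2 fold change was -0.30 (SE 0.11) with pracinostat and -0.49 (SE 0.11) with vorinostat. The latter was called and the former was not, although it was with library totals for scaling (-0.37), with DESeq2 (-0.27) or with both DMSO sets as control (-0.33). The smallest differences were those of OCILY1, -0.08 and -0.11. The lowest 14 day DMSO library, WSUDLCL2 at 129 CPM, was still above every drug library of 6 h, with which it shares no control.

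Over the 10 genes, a gene was counted as called when the Benjamini-Hochberg adjusted p of the edgeR fit over all genes was under 0.05. With pracinostat at 6 h 7 of 10 were called lower, where 18.9% of all 13177 genes tested were called lower, and 0 were called higher, where 21.2% of all were. With vorinostat at 6 h 5 of 10 were called lower (20.9% of all) and 0 higher (23.1% of all). With pracinostat at 14 days 1 of 10 was called lower (10.2% of all 14037 tested) and 0 higher (12.3%). With vorinostat at 14 days 5 of 10 were called lower (17.2% of all) and 0 higher (20.4%). The median log2 fold change of the members was -0.50 and -0.38 at 6 h with pracinostat and vorinostat and -0.14 and -0.37 at 14 days. Over all genes tested the medians were 0.03, 0.02, 0.07 and 0.12. Because the members were chosen with these comparisons known, nothing is read from these counts. The cell lines stood as block in every fit. With that block left out, the members called were 2 and 3 at 6 h and 0 and 1 at 14 days, in the same order of drugs.

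**Figure D2:**
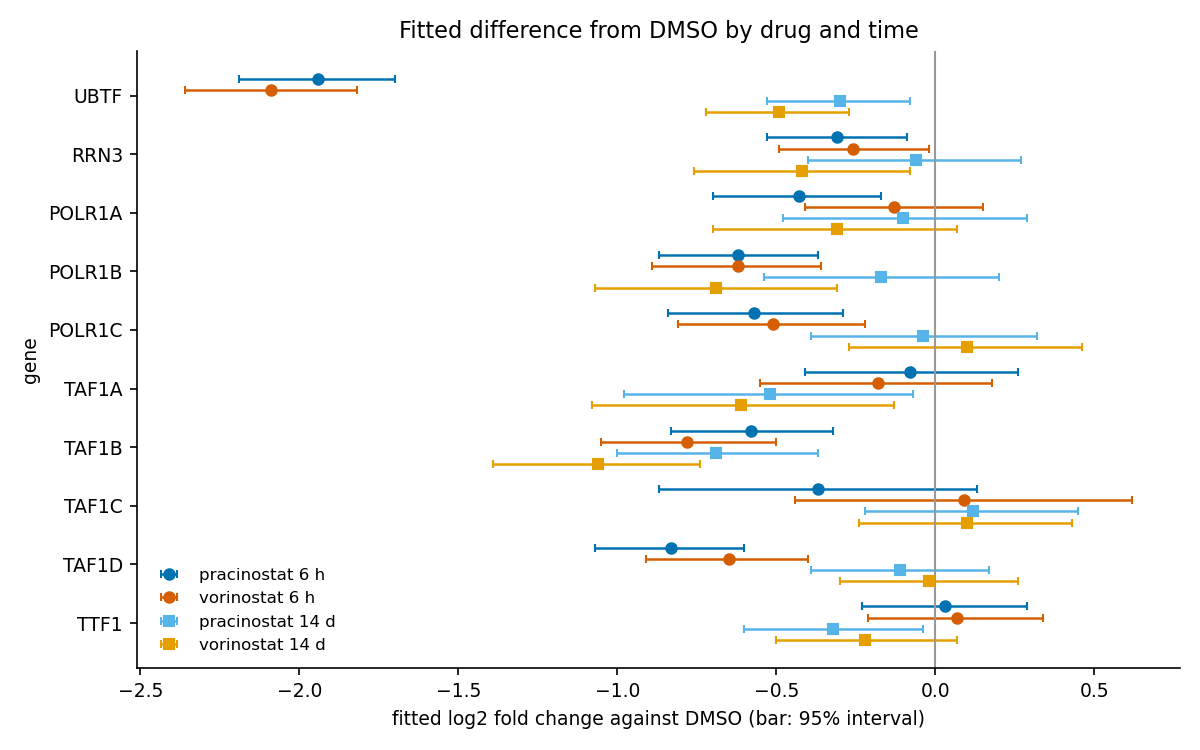
Fitted log2 fold change against DMSO (horizontal axis) of each of the 10 genes (vertical axis), by drug and time. Points are the estimates of the edgeR fit with the cell line as block and bars their 95% intervals, from 6 lines for pracinostat at 6 h and 5 lines otherwise. UBTF at 6 h stands at -1.94 and -2.09, and the other points lie between -1.06 and 0.12.

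Among the SL1 subunits, TAF1B was lower with both drugs at both times. In DMSO at 6 h it stood between 27.7 CPM in TOLEDO and 36.3 CPM in SUDHL6, and with pracinostat between 15.1 CPM in TOLEDO and 26.5 CPM in SUDHL6. With vorinostat at 6 h OCILY1 gave 19.9, PFEIFFER 17.2, SUDHL4 15.5, TOLEDO 14.2 and WSUDLCL2 19.1 CPM. At 14 days these lines gave 30.3, 29.9, 24.0, 21.5 and 22.4 CPM in DMSOP and 20.1, 13.4, 14.1, 14.7 and 15.7 CPM with pracinostat. They gave 32.2, 31.3, 24.6, 23.8 and 31.3 CPM in DMSOV and 18.6, 17.1, 8.29, 11.9 and 11.9 CPM with vorinostat. Every drug library of TAF1B was below every library of its DMSO group in all 4 comparisons. The log2 fold change was -0.58 (SE 0.12) and -0.78 (SE 0.13) at 6 h and -0.69 (SE 0.15) and -1.06 (SE 0.15) at 14 days, for pracinostat and vorinostat in turn. Drug groups lay wholly under DMSO for 3 of 10 members at 6 h, UBTF, POLR1B and TAF1B, with either drug. At 14 days this held for TAF1B alone. Of all genes tested, 2.25% did so with pracinostat and 4.02% with vorinostat at 6 h, and 2.05% and 4.11% at 14 days.

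TAF1D was lower at 6 h and close to DMSO at 14 days. Its 6 h DMSO libraries held 136 CPM in OCILY1, 134 in PFEIFFER, 167 in SUDHL4, 183 in SUDHL6, 211 in TOLEDO and 212 in WSUDLCL2, and the pracinostat libraries 64.0, 78.1, 87.9, 88.6, 156 and 130 CPM. Vorinostat at 6 h gave 73.4, 90.5, 116, 182 and 111 CPM in the 5 lines without SUDHL6. Each line was lower with each drug, and the groups overlapped because TOLEDO stayed high with both. The log2 fold change was -0.83 (SE 0.11) with pracinostat and -0.65 (SE 0.12) with vorinostat at 6 h, and -0.11 (SE 0.13) and -0.02 (SE 0.13) at 14 days. TAF1D hosts small nucleolar RNA genes in its exons as annotated and overlaps exons of CEP295, C11orf54 and MED17 on the other strand. The library kit named in the labels does not mark strand, so reads of such stretches cannot be told apart.

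The remaining SL1 subunits gave less uniform values. TAF1C ranged from 22.7 to 66.1 CPM in DMSO at 6 h, from 10.3 to 63.2 with pracinostat and from 24.8 to 50.9 with vorinostat, with log2 fold changes of -0.37 (SE 0.23) and 0.09 (SE 0.25). Its single lines pointed both ways, from -1.28 in WSUDLCL2 to 0.28 in TOLEDO with pracinostat. Exons of DNAAF1 on the other strand cover 8.07% of the TAF1C exon length, which again cannot be told apart. TAF1A, the scarcest member, held 5.75 to 28.8 CPM in DMSO at 6 h, and its log2 fold change was -0.08 (SE 0.16) and -0.18 (SE 0.17) at 6 h. At 14 days it was -0.52 (SE 0.22) with pracinostat, with 5 of 5 lines lower, and -0.61 (SE 0.22) with vorinostat. The vorinostat value for TAF1A came from PFEIFFER at -1.11, TOLEDO at -1.32 and WSUDLCL2 at -0.83, while OCILY1 stood at 0.01 and SUDHL4 at 0.26. It was called over 5 lines and not called without PFEIFFER (-0.47), without TOLEDO (-0.44) or without WSUDLCL2 (-0.56).

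POLR1B and POLR1C were lower at 6 h with both drugs, and POLR1A with pracinostat, to a smaller degree than UBTF. POLR1B held 86.7 CPM in OCILY1, 91.7 in PFEIFFER, 106 in SUDHL4, 104 in SUDHL6, 131 in TOLEDO and 117 in WSUDLCL2 in DMSO at 6 h. With pracinostat these lines held 54.0, 50.8, 77.1, 86.7, 72.8 and 74.9 CPM, and SUDHL6 with pracinostat lay just below OCILY1 in DMSO, the values being equal at the digits shown. With vorinostat the 5 lines held 55.5, 76.5, 59.0, 68.7 and 75.8 CPM. The log2 fold change of POLR1B was -0.62 (SE 0.12) with either drug at 6 h. At 14 days it was -0.17 (SE 0.18) with pracinostat and -0.69 (SE 0.18) with vorinostat, the latter being 0.07 in OCILY1 and -1.34 in TOLEDO, and not called without TOLEDO (-0.56).

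POLR1A was lower in 6 of 6 lines with pracinostat at 6 h, from 154 ± 23.6 CPM (SD, n = 6) to 114 ± 19.2 CPM (SD, n = 6), with a log2 fold change of -0.43 (SE 0.12). Its largest differences were -0.87 in WSUDLCL2 and -0.71 in TOLEDO, and it was not called without WSUDLCL2 (-0.34). With vorinostat at 6 h it stood at 136 ± 17.4 CPM (SD, n = 5), lower in every line but PFEIFFER, which was higher by 0.46, and the log2 fold change of -0.13 (SE 0.13) was not called. POLR1C went from 46.0 ± 9.23 CPM in DMSO at 6 h (SD, n = 6) to 31.4 ± 9.19 with pracinostat (SD, n = 6) and 29.6 ± 4.55 with vorinostat (SD, n = 5), and every line was lower. Its log2 fold change was -0.57 (SE 0.13) and -0.51 (SE 0.14) at 6 h and -0.04 (SE 0.17) and 0.10 (SE 0.17) at 14 days. Exons on the other strand cover part of the POLR1C exon length, 7.06% by AL355802.2, 6.27% by XPO5, 2.52% by LRRC73 and 2.32% by YIPF3. Likewise AC003102.1 covers 3.09% of the UBTF exon length and TAF1A-AS1 3.8% of that of TAF1A. Reads of these stretches cannot be told apart either.

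RRN3, the initiation factor, was lower by a small amount at 6 h, from 89.7 ± 17.3 CPM in DMSO (SD, n = 6) to 73.1 ± 17.2 with pracinostat (SD, n = 6) and 79.8 ± 22.6 with vorinostat (SD, n = 5). The log2 fold change was -0.31 (SE 0.10) and -0.26 (SE 0.11). The first was called over 6 lines and was not called without OCILY1 (-0.29), PFEIFFER (-0.26), SUDHL4 (-0.33) or TOLEDO (-0.25), or with library totals for scaling (-0.21). At 14 days it was -0.06 (SE 0.16) with pracinostat and -0.42 (SE 0.16) with vorinostat. The latter was not called without OCILY1 (-0.45), PFEIFFER (-0.39), TOLEDO (-0.32) or WSUDLCL2 (-0.44).

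RRN3 has near-identical pseudogene copies, so its level is uncertain. RRN3P1, RRN3P2 and RRN3P3 together took 13.5% to 68.0% of the counts assigned to RRN3 and its copies, with a median of 31.5%. RRN3P3 moved more than RRN3, with log2 fold changes of -1.08 (SE 0.24) and -0.79 (SE 0.25) at 6 h and 0.35 (SE 0.25) and 0.96 (SE 0.26) at 14 days. RRN3P1 stood at -0.26 (SE 0.17) and -0.14 (SE 0.18) at 6 h and at 0.60 (SE 0.21) and 0.39 (SE 0.21) at 14 days. RRN3P2 was low throughout, at a mean of 4.97 ± 3.77 CPM in DMSO at 6 h (SD, n = 6).

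TTF1 showed no common direction at 6 h. It held 51.7 ± 10.3 CPM in DMSO (SD, n = 6), 54.2 ± 18.8 with pracinostat (SD, n = 6) and 52.9 ± 13.8 with vorinostat (SD, n = 5), and its log2 fold change was 0.03 (SE 0.12) and 0.07 (SE 0.13). With pracinostat OCILY1 was at -0.47 and WSUDLCL2 at 0.56. At 14 days the values were -0.32 (SE 0.13) and -0.22 (SE 0.13), neither of them called.

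**Figure D3:**
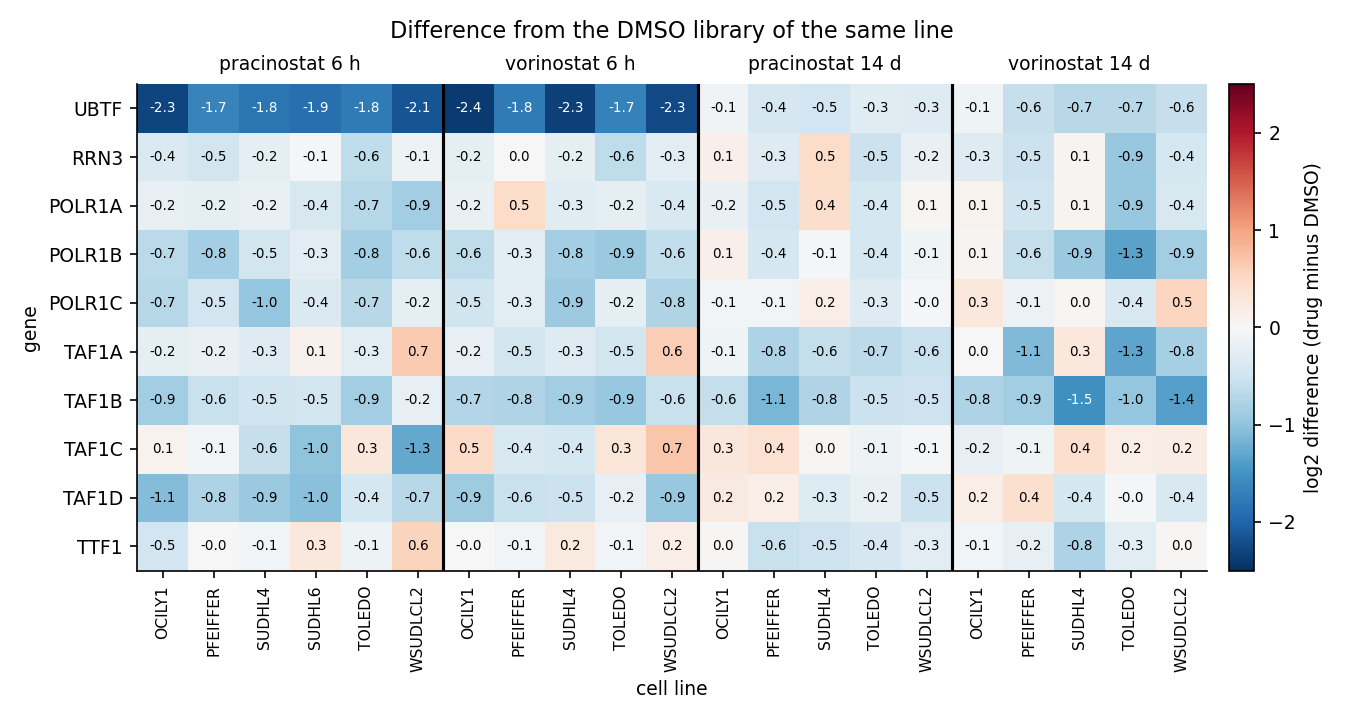
Log2 difference between each drug library and the DMSO library of its line, with a prior count of 2 added before the log2, for the 10 genes (rows) and the lines (columns) in the 4 comparisons. Blue is lower and red higher than DMSO, on the scale at the right. UBTF is the darkest row at 6 h, from -2.39 to -1.67, and TAF1B is blue in every column.

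The drugs were next compared with each other in 20 comparisons (10 genes at 2 times). At 6 h the comparison is vorinostat against pracinostat libraries directly. At 14 days it is each drug's difference from its own DMSO set, DMSOV or DMSOP, and then the difference of those. Doses are not given, so these are differences at the doses used. The log2 difference of UBTF, vorinostat minus pracinostat, was -0.15 (95% interval -0.41 to 0.11) at 6 h and -0.19 (-0.51 to 0.13) at 14 days, with adjusted p of 0.747 and 1.00 (edgeR). TAF1B gave -0.20 (-0.48 to 0.08) and -0.37 (-0.82 to 0.07). The estimates furthest from 0 were those of TAF1C at 6 h, 0.46 (-0.07 to 0.99), and POLR1B at 14 days, -0.52 (-1.05 to 0.01). POLR1A at 6 h, at 0.30 (0.02 to 0.58), was the sole comparison of the 20 with an unadjusted p under 0.05, and its adjusted p was 0.518. So 0 of 10 members were called at 6 h, where 0.0152% of all genes were, and 0 at 14 days, where 0% were. DESeq2 and limma also called 0 members at either time. The intervals allow differences of 0.99 and -1.05 on the log2 scale at their widest named ends, so equal action was not shown.

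The change of a drug's difference from DMSO between the times was computed as an interaction. It is built from the same libraries as the comparisons above and is not independent of how the genes were chosen. For UBTF the difference was higher at 14 days than at 6 h by 1.61 (SE 0.16) with pracinostat and by 1.56 (SE 0.16) with vorinostat on the log2 scale, in 5 of 5 lines for either drug. OCILY1 gave 2.22 and 2.27, the largest values, and TOLEDO gave 0.99 with vorinostat, the smallest. These values are not the rise of UBTF in drug libraries alone, because DMSO was also lower at 14 days. Mean UBTF went from 85.4 CPM at 6 h (n = 6) to 162 CPM at 14 days (n = 5) with pracinostat. With vorinostat it went from 80.5 to 144 CPM (n = 5 each). In DMSO it went from 322 CPM (n = 6) to 202 CPM in DMSOP and 207 CPM in DMSOV (n = 5 each). For TAF1D the difference from DMSO was higher by 0.70 (SE 0.18) and 0.60 (SE 0.18), also in 5 of 5 lines. These were the 2 of 10 members called for either drug, where 9.53% of all 15420 genes tested were called higher for pracinostat and 11.2% for vorinostat. No p-value is given and nothing is read from this count, since the choice of genes used these values. TAF1D was not called without OCILY1, at 0.56 and 0.50, nor for vorinostat without PFEIFFER, at 0.52. POLR1C stood at 0.51 (SE 0.22) and 0.58 (SE 0.22), and TAF1B at -0.14 (SE 0.18) and -0.32 (SE 0.19), neither called.

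In the DMSO cells themselves 6 members were called lower at 14 days than at 6 h. This comparison shares the 6 h DMSO libraries with those above. It is therefore not independent of how the genes were chosen, and no p-value is given. UBTF differed by -0.74 on the log2 scale (SE 0.09, edgeR), in 5 of 5 lines, from -1.02 in WSUDLCL2 to -0.33 in TOLEDO. POLR1C differed by -0.80 (SE 0.13) and RRN3 by -0.52 (SE 0.10). POLR1B stood at -0.38 (SE 0.10), POLR1A at -0.39 (SE 0.13) and TAF1D at -0.23 (SE 0.08). The single lines of POLR1A ran from -0.93 in WSUDLCL2 to 0.08 in PFEIFFER. The fit counted the DMSOP and DMSOV libraries of a line separately. It held no term for a line's own change with time, so the SE can be too small. Of all 12986 genes tested, 10.8% were called lower, and nothing is read from the count of members. TAF1A (-0.04, SE 0.16), TAF1B (-0.11, SE 0.09), TAF1C (-0.07, SE 0.16) and TTF1 (-0.16, SE 0.09) were not called. UBTF, POLR1C and RRN3 were called whichever line was left out. POLR1A was not called without OCILY1, SUDHL4, TOLEDO or WSUDLCL2 (-0.46 to -0.26), TAF1D not without OCILY1, PFEIFFER or SUDHL4 (-0.24 to -0.18), and POLR1B not without OCILY1 (-0.33). With the lines not kept as block, 0 of 10 were called. The sources do not say whether the 14 day cultures were handled or sequenced together with those of 6 h, so time and such differences cannot be told apart.

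The DMSO sets of 14 days were compared as a check on the controls. DMSOV minus DMSOP was 0.05 for UBTF (95% interval -0.17 to 0.28) and between -0.10 (POLR1C) and 0.16 (TAF1B) for the others. Called were 0 of 10 members and 0% of all genes. Of 14037 genes tested 83 were under an unadjusted p of 0.05, far fewer than a share of 0.05. The fit took its spread from the drug and DMSO libraries together and was strict here, so 0 calls do not show equal sets. DESeq2 called 0 as well. The pairs were not copies of a library, since their counts differed beyond counting noise, with a chi-square per degree of freedom of 1.91 in PFEIFFER to 20.3 in WSUDLCL2. WSUDLCL2 stood apart from its fellow lines, at 0.71 for POLR1A and 0.70 for POLR1B.

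Levels of different genes were compared per kb of exon over the 16 DMSO libraries. UBTF was the most abundant member, at 35.6 ± 11.2 CPM per kb (SD, n = 16 libraries of 6 lines), and ranked first in 14 of 16 libraries. TAF1D followed at 18.9 ± 5.12, RRN3 at 18.0 ± 4.65, TTF1 at 14.9 ± 3.81 and POLR1B at 14.5 ± 3.82 CPM per kb, with overlapping SDs. POLR1A stood at 9.62 ± 2.39, then TAF1B at 6.99 ± 1.03, TAF1C at 6.46 ± 2.35, POLR1C at 5.91 ± 2.32 and TAF1A at 5.18 ± 2.74 CPM per kb. The SDs of the last 4 overlapped as well. All genes were read in the same libraries and no paired comparison was made, so whether neighbours differ was not tested. Exon length counts all annotated exons of a gene, used or not, so the order is approximate.

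**Figure D4:**
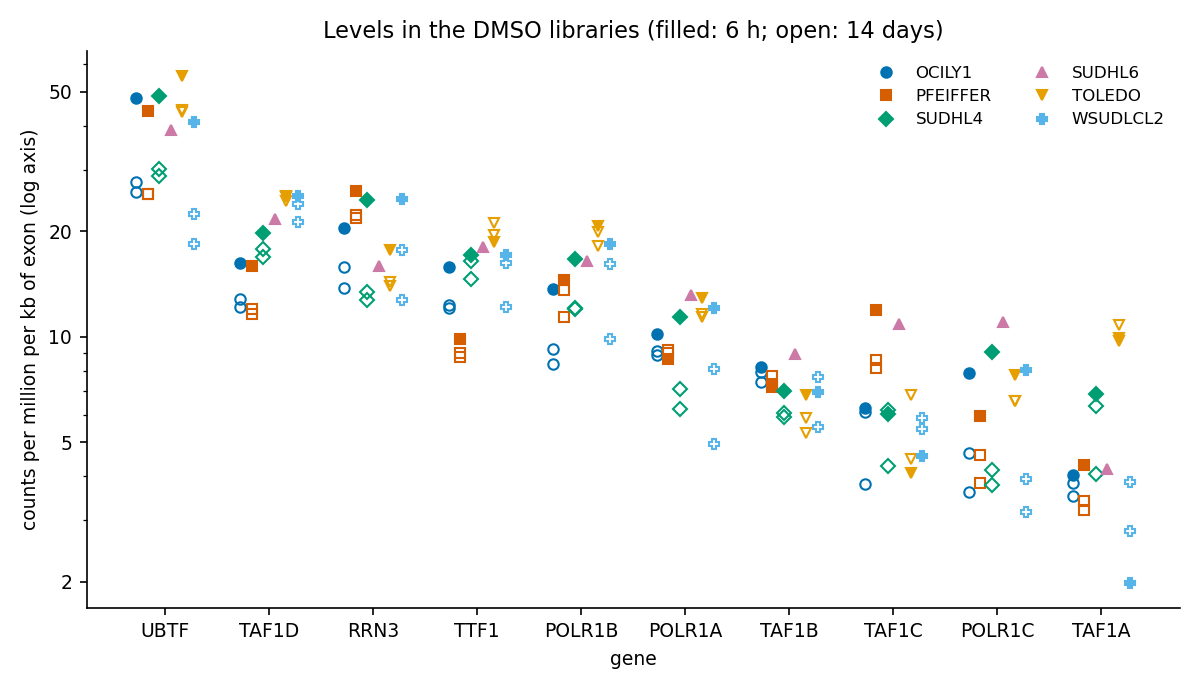
Level of each of the 10 genes in CPM per kb of exon (vertical log axis), ordered by mean (horizontal axis), in the 16 DMSO libraries. Symbols and colours give the line, filled at 6 h and open at 14 days. UBTF lies highest at a mean of 35.6, and TAF1A lowest at 5.18 with the TOLEDO libraries well above the rest.

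Lines differed in 9 of 10 members in DMSO (edgeR F test over lines), where 90.7% of all genes differed. The fit held terms for time and DMSO set beside the line. TAF1A spread most, by 1.81 on the log2 scale (adjusted p = 1.47e-05). In DMSO at 6 h, the time that all 6 lines share, it stood at 28.8 CPM in TOLEDO, 19.9 in SUDHL4, 12.5 in PFEIFFER, 12.1 in SUDHL6, 11.7 in OCILY1 and 5.75 in WSUDLCL2. UBTF differed as well (adjusted p = 1.67e-04), and its 6 h levels, given above, ran from SUDHL6 up to TOLEDO. TOLEDO was also highest at 6 h in POLR1B at 131 CPM and in TTF1 at 60.2 CPM, and in TAF1D it was level with WSUDLCL2, at 211 and 212 CPM. PFEIFFER was lowest in TTF1 at 31.7 CPM and highest in RRN3 at 108 CPM, where SUDHL6 was lowest at 66.2 CPM. POLR1A differed by 0.56 at most and was not called (adjusted p = 0.0853). SUDHL6 entered with 1 library, of 6 h, and the other lines with 3 each.

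The expression pattern of UBTF was then set against every other gene, by Pearson's r of log2 CPM over 37 libraries after centring on line and time, among 10635 genes with a mean of at least 5 CPM. These are descriptions, as all genes share the libraries and the 6 h drug response dominates the pattern. Closest were U2AF2, a splicing factor subunit (r = 0.97), ITFG2 (0.97), PATZ1, a zinc-finger transcription factor (0.96), SMG5, a factor of nonsense-mediated decay (0.95), and ING5, a subunit of histone acetyltransferase complexes (0.95). U2AF2 went from 329 ± 49.5 CPM in DMSO at 6 h (SD, n = 6) to 121 ± 18.6 with pracinostat (SD, n = 6) and 121 ± 12.7 with vorinostat (SD, n = 5). Its log2 fold changes were -1.44 (SE 0.11) and -1.40 (SE 0.11) at 6 h and -0.33 (SE 0.11) and -0.54 (SE 0.12) at 14 days. Among the members r with UBTF was 0.84 for TAF1D, 0.74 for POLR1B, 0.69 for POLR1C, 0.68 for TAF1B, 0.52 for RRN3 and 0.49 for POLR1A. It was 0.27 for TAF1A, 0.17 for TAF1C and 0.07 for TTF1. By r, TAF1D ranked 301 among the genes compared, and the other members between 749 (POLR1B) and 4849 (TTF1).

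Other genes of the ribosomal RNA pathway were counted from lists of textbook members, also chosen with earlier results known. Their counts stand beside the shares of all genes tested that were called lower, 18.9% with pracinostat and 20.9% with vorinostat at 6 h and 10.2% and 17.2% at 14 days, and called higher, 21.2% and 23.1% at 6 h and 12.3% and 20.4% at 14 days. Of 20 factors that process early ribosomal RNA, 14 were called lower and 0 higher with pracinostat at 6 h, with a median of -0.53. With vorinostat 12 were lower and 0 higher, with a median of -0.47. UTP20, a scaffold of the small-subunit processome, stood at -1.61 (SE 0.19) and -1.60 (SE 0.21), and DKC1, the pseudouridine synthase dyskerin, at -1.19 (SE 0.10) and -1.30 (SE 0.11). At 14 days 19 of these were tested, and 2 were lower with pracinostat and 8 with vorinostat. Of 19 regulators of ribosomal DNA, 4 were higher and 9 lower with pracinostat at 6 h and 5 and 9 with vorinostat. Among them MYBBP1A, a nucleolar repressor, stood at -1.41 (SE 0.16) and -1.04 (SE 0.18), and SUV39H1, a histone methyltransferase, at -1.07 (SE 0.15) and -1.66 (SE 0.17). On the higher side, TAF12 stood at 0.49 (SE 0.14) and 0.38 (SE 0.15), and BAZ2A, part of the NoRC complex that silences ribosomal repeats, at 0.47 (SE 0.13) and 0.85 (SE 0.13). CAVIN1, known for release of the RNA polymerase I transcript, was called higher with both drugs, but 4 of 6 DMSO libraries held 0 counts of it and the highest stood at 0.948 CPM. It reached 15.5 CPM with pracinostat and 10.1 CPM with vorinostat, with 0 counts in 3 of 6 and 2 of 5 libraries, so no fold is given. The median of the regulators was -0.28 and -0.27 at 6 h. At 14 days 1 was higher and 5 lower with pracinostat, with a median of -0.28, and 2 were higher and 9 lower with vorinostat, with a median of -0.44. B-cell markers moved at the same time, with 6 of 7 lower at 6 h with each drug and their summed median at 2612 and 2556 CPM against 5632 CPM in DMSO. Whether these movements share a cause with those of the members was not tested.

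The polymerase subunits outside the 10 were counted against the same shares. Of 5 further RNA polymerase I subunits not shared with RNA polymerase II, 2 were called lower and 0 higher with pracinostat at 6 h. They were CD3EAP at -0.63 (SE 0.16) and ZNRD1 at -0.42 (SE 0.15), with a median of 0.03 over the 5. With vorinostat ZNRD1 was lower at -0.67 (SE 0.16) and POLR1E higher at 0.30 (SE 0.11). At 14 days POLR1D, shared with RNA polymerase III, was higher at 0.30 (SE 0.10) with pracinostat and 0.54 (SE 0.10) with vorinostat. Among POLR2E, POLR2H, POLR2K and POLR2L, shared with RNA polymerase II, POLR2H was called lower at 6 h with either drug, at -0.27. Called higher were POLR2K with pracinostat at 6 h, at 0.50 (SE 0.17), and POLR2E with vorinostat, at 0.63 (SE 0.19) at 6 h and 0.55 (SE 0.16) at 14 days. Of 7 subunits of RNA polymerase II alone, 3 were higher and 1 lower with pracinostat at 6 h and 2 and 1 with vorinostat, with a median of 0.17 for each. POLR2A, the largest of them, was the lower one, at -0.62 (SE 0.16) and -0.47 (SE 0.17), and stood at -0.71 (SE 0.17) and -1.18 (SE 0.17) at 14 days. Of 11 subunits of RNA polymerase III alone, 1 was higher and 5 lower with pracinostat at 6 h and 0 and 5 with vorinostat, with medians of -0.32 and -0.34. CRCP stood at -0.84 (SE 0.10) and -1.16 (SE 0.11) there, and POLR3D at -0.91 (SE 0.14) and -0.92 (SE 0.15). POLR3G, at -1.39 (SE 0.28) and -1.88 (SE 0.28), was the lowest at 14 days. No test set these lists against the members.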

How the data were processed

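RNA was taken with Trizol and the Illumina TruSeq RNA kit was used on 1 µg of it, per the labels' protocols. The submitters' processing notes name STAR, edgeR and hg38. No version, annotation release or strand setting is given. The authors deposited a table of raw read counts (18011 genes, 37 libraries) and one of normalized log2 values, used only for an alternative. The series lists 38 samples; a further one labelled SUDHL4, vorinostat, 14 days was not analysed here. Symbols and positions come from GENCODE 29 on GRCh38, which matched 17859 of 18011 genes.

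Counts went into edgeR 4.0.16 under R 4.3.3 (TMM scaling, filterByExpr with minimum count 10 and minimum total 15, robust quasi-likelihood), with all groups of a time in 1 fit and the cell line as block, since libraries of a line pair by origin. Interactions came from a fit of all libraries. The p-values were adjusted over every gene of a fit (Benjamini-Hochberg), and genes called under 0.05. CPM use TMM library sizes. Each drug at 14 days was set against the DMSO carrying its first letter, a reading of the titles that no label states. The 6 h DMSO libraries served both drugs. Their titles give no drug letter. Their names in the normalized values read DMSOV for OCILY1, SUDHL4, SUDHL6 and WSUDLCL2 and DMSOP for PFEIFFER and TOLEDO. These letters were not used, so some 6 h drug libraries were set against DMSO named for the other drug. Nothing states separate cultures, so p-values measure the spread between these samples. Alternatives were DESeq2 1.42.0, limma 3.58.1 on the deposited log2 values, other scalings, no low-count filter, no block, each line left out, both DMSO sets as control and fits of 2 groups. The pipeline was tested on simulated data.

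Named genes are all members, the RRN3 copies, the 5 genes most like UBTF and, of each list and drug comparison, the called genes that rose and fell most (up to 2 each way), of which the text gives a part. Members and lists were chosen with earlier results of these data known.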

Additional observations from a re-analysis of the deposited data

Results flagged for a closer look

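Single lines that stood far from the others were looked for in 40 sets of line differences (10 genes in 4 comparisons), where chance marks about 1 set in 20. UBTF with vorinostat at 14 days was at -0.11 in OCILY1, against -0.70 to -0.57 in the other lines. POLR1A with vorinostat at 6 h was at 0.46 in PFEIFFER, against -0.39 to -0.19. TAF1A with vorinostat at 6 h was at 0.62 in WSUDLCL2, against -0.46 to -0.20.

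UBTF and TAF1D were flagged because the interaction term of the edgeR fit, drug against DMSO between 6 h and 14 days, was called. The flag is description only. The change for UBTF was 1.61 with pracinostat and 1.56 with vorinostat on the log2 scale, and for TAF1D 0.70 and 0.60. In 5 of 5 lines the difference from DMSO was higher at 14 days than at 6 h for both genes. In DMSO itself both were lower at 14 days, at -0.74 for UBTF and -0.23 for TAF1D. The change is therefore not the rise in drug libraries alone. No p-value is given, because the members were chosen with the drug values known.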

How the results depend on the processing

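UBTF kept its direction under every alternative run in the 4 drug comparisons and both time differences. It stayed called at 6 h throughout, with log2 fold changes of -1.98 to -1.84 for pracinostat and down to -2.19 for vorinostat. Calls in this section describe the effect of the processing only. They are no support for the members, which were chosen with the drug values known. With pracinostat at 14 days it was called with library totals (-0.37), DESeq2 (-0.27) or both DMSO sets as control (-0.33). Without the replicate block of lines, members called were 2 and 3 at 6 h, 0 and 1 at 14 days, 1 and 1 for the time differences (pracinostat, then vorinostat) and 0 for time in DMSO. For pracinostat at 14 days they were 2 with library totals, 2 with DESeq2 and 4 with both DMSO sets. For vorinostat at 14 days they were 3 with RLE factors and 3 with only 2 groups fitted, and for its time difference 1 with library totals. With a line left out, they were 2 to 5 for vorinostat at 14 days, 1 to 3 for either time difference and 3 to 6 for time in DMSO. Over all genes, the counts without the block were 577 and 1106 at 6 h, 8 and 696 at 14 days, 75 and 252 for the time differences and 0 for time in DMSO, against 5289, 5790, 3167, 5274, 2986, 3605 and 3025 with it. The cause was not tested.

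Reversals concerned uncalled values, and ranges here are over lines left out. With pracinostat at 6 h TAF1A was 0.03 with library totals, and TTF1 ranged from -0.08 (without WSUDLCL2) to 0.14. With vorinostat at 6 h TAF1C was -0.08 without the block and ranged from -0.11 (without WSUDLCL2) to 0.23. With pracinostat at 14 days RRN3 ranged from -0.23 to 0.03 (without TOLEDO), POLR1A from -0.27 to 0.00 and POLR1C from -0.11 to 0.01, the latter being 0.01 with both DMSO sets. With vorinostat at 14 days POLR1C and TAF1C were each -0.01 with library totals, and ranged from -0.06 (without WSUDLCL2) to 0.20 and from 0.00 (without SUDHL4) to 0.18. TAF1D there was 0.00 with RLE factors or DESeq2, 0.01 with only 2 groups, and ranged from -0.13 to 0.05 (without WSUDLCL2). In the time differences, TAF1B for pracinostat ranged from -0.26 to 0.00 and POLR1B for vorinostat from -0.31 to 0.01, both highest without PFEIFFER. TAF1C for vorinostat was 0.01 with RLE factors or DESeq2, 0.13 without the block, and ranged from -0.21 to 0.15 (without OCILY1).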
